A study of Mus musculus with 34 samples.

Results

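The expression of 10 genes was followed in hematopoietic stem cells (HSCs) of young and aged mice with or without Ythdf2. They are the transcription factors Foxo1 and Foxo3, the transcription factor gene Nfe2l2 (which encodes Nrf2), the antioxidant enzyme genes Sod1, Sod2, Cat, Gpx1, Gpx4 and Prdx1, and Txnip, whose product binds thioredoxin. They were chosen by name, with earlier results of these data known, and all 10 of the 10 names were found among the 13108 gene rows of the count table. YTHDF2 is a reader of N6-methyladenosine that directs marked mRNAs to decay, and the design asks how its loss changes the HSC transcriptome at each age.

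Young mice were 8 to 12 wk old and aged mice 1 yr old, all on the C57BL/6 background. Conditional knockout (CKO) mice were Ythdf2 fl/fl;Vav-iCre, and control (CTL) mice were Ythdf2 fl/fl littermates without Cre, so every mouse of all 4 groups carried the floxed allele, in which a GFP tag is fused to YTHDF2 and exon 2 is flanked by loxP sites. Vav-iCre is active throughout blood cells from fetal life, so the deletion was neither induced in adults nor limited to HSCs. There were 4 young CTL, 4 young CKO, 4 aged CTL and 5 aged CKO mice, each with 2 libraries of 100 sorted LSK CD48-CD150+ HSCs. The libraries of a mouse were added together and the mouse was the replicate. One aged CTL library (mouse 99, library B, 187034 counts) was left out, since the submitters' design text excludes it for its few reads, which left 33 of 34 libraries.

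Total counts ran from 1859784 to 7784627 per library, and 17 mice entered the comparisons. Young and aged libraries carry different library-set names in the labels, so age and library set cannot be told apart in any comparison of ages below. HSC markers (13 genes, summed) were present at 1882 to 3702 CPM (a gene's counts as a share of the mouse's total, TMM-normalized) in every mouse, and no HSC marker was at 0 throughout a group. Fewer cells of a kind and less RNA per cell cannot be told apart in such pooled libraries.

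The targeted gene, Ythdf2 (chr4:132184912-132212303, minus strand, GRCm38), checked the labels first. In young CTL mice its level was 118.3, 123.2, 93.4 and 97.2 CPM, and in young CKO mice it was 55.6, 57.6, 60.3 and 50.3 CPM, with no overlap. The young difference was -0.95 on the log2 scale (SE 0.17, edgeR adjusted p = 0.0406). Aged CTL mice 65, 99 and 114 had 179.3, 163.8 and 142.1 CPM, whereas the mouse labelled aged CTL 124 had 70.5 CPM. Aged CKO mice 78, 81, 94 and 122 had 75.8, 87.8, 73.8 and 72.4 CPM, whereas the mouse labelled aged CKO 121 had 188.1 CPM. Both of these mice go against their labels. The labels were kept, and the aged genotype differences of the 10 genes and some of the list counts with age are also given without mice 121 and 124. For Ythdf2 itself the aged difference was -0.48 (adjusted p = 0.661) with both, and -1.06 (adjusted p = 0.0212) without mice 121 and 124. Mice 121 and 124 were picked by their Ythdf2 level, so leaving them out enlarges this difference by the choice itself. The adjusted p without them is therefore no test of the deletion.

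FoxO proteins are transcription factors that growth factor signalling through PI3K and AKT holds in the cytoplasm. In the nucleus they switch on genes of cell cycle arrest, autophagy and detoxification of reactive oxygen species, and HSCs that lack them lose quiescence and accumulate reactive oxygen species. Superoxide dismutases turn superoxide into hydrogen peroxide, which catalase, glutathione peroxidases and peroxiredoxins then remove, and Nrf2 drives many genes of the glutathione and thioredoxin systems once it escapes KEAP1.

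Short sequence matches in the promoters are shown because FoxO factors and Nrf2 are themselves among the 10 genes. The RefSeq promoter table (GRCm38.p6, 250 bases before to 50 bases after each start) matched all 10 genes, and both strands were searched for 3 motifs, the FoxO site TGTTTAC, the antioxidant response element core TGACNNNGC bound by Nrf2, and the E-box CACGTG. Txnip alone among the 10 held the FoxO site, which 3.65% of all 32851 promoters in the table held. The antioxidant response element core was in the promoters of Prdx1, Sod1 and Nfe2l2 itself, against 12.39% of all promoters, and the E-box was in none of the 10, against 7.15%. Each sequence below is written 5′ to 3′ on the gene's own strand with 10 flanking bases on each side, and the capitals mark the match.
Txnip, FoxO site read on the opposite strand, first base at -121 from the start, chr3:96557826-96557852: tggaggcctgGTAAACAagggccaagt
Prdx1, antioxidant response element core on the opposite strand, first base at -133, chr4:116685456-116685484: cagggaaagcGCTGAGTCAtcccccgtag
Sod1, the same core on the opposite strand, first base at -56, chr16:90220696-90220724: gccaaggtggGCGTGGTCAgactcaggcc
Nfe2l2 (minus-strand gene), the same core on the gene's own strand, first base at -240, chr2:75704885-75704913: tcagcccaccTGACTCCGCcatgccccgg
A match is a run of letters and no evidence of binding, and none of these libraries measured binding. No promoter among the 10 held more than 1 match, so no match overlapped another.

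Levels between genes were compared per kilobase of annotated exon, with the exons of all annotated transcripts of a gene merged. A merged length can exceed that of the transcript expressed, which lowers the value. It was 3970 bases for Sod1 and 10008 for Sod2, against 1441 for Gpx1, so the order depends on the annotation. In young CTL mice Gpx1, the cytosolic glutathione peroxidase, stood highest at 2208 CPM per kb ± 262 (SD, n = 4), followed by Prdx1, a cytosolic peroxiredoxin, at 547 ± 126 and Gpx4, the glutathione peroxidase that reduces lipid peroxides, at 286 ± 15.6 CPM per kb. Then came Txnip at 136 ± 42.8, Sod1 at 74.4 ± 4.87, Cat at 42.2 ± 10.1, Nfe2l2 at 37.2 ± 3.15 and Sod2 at 25.5 ± 2.97 CPM per kb. The FoxO factors were lowest, with Foxo1 at 0.890 ± 0.339 and Foxo3 at 0.651 ± 0.402 CPM per kb. Among neighbours in this order, the ranges of mice overlapped between Cat and Nfe2l2 and between Foxo1 and Foxo3. In aged CTL mice the order of the 10 genes was the same, but there the ranges of Prdx1, Gpx4 and Txnip overlapped from each to the next.

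**Figure D1:**
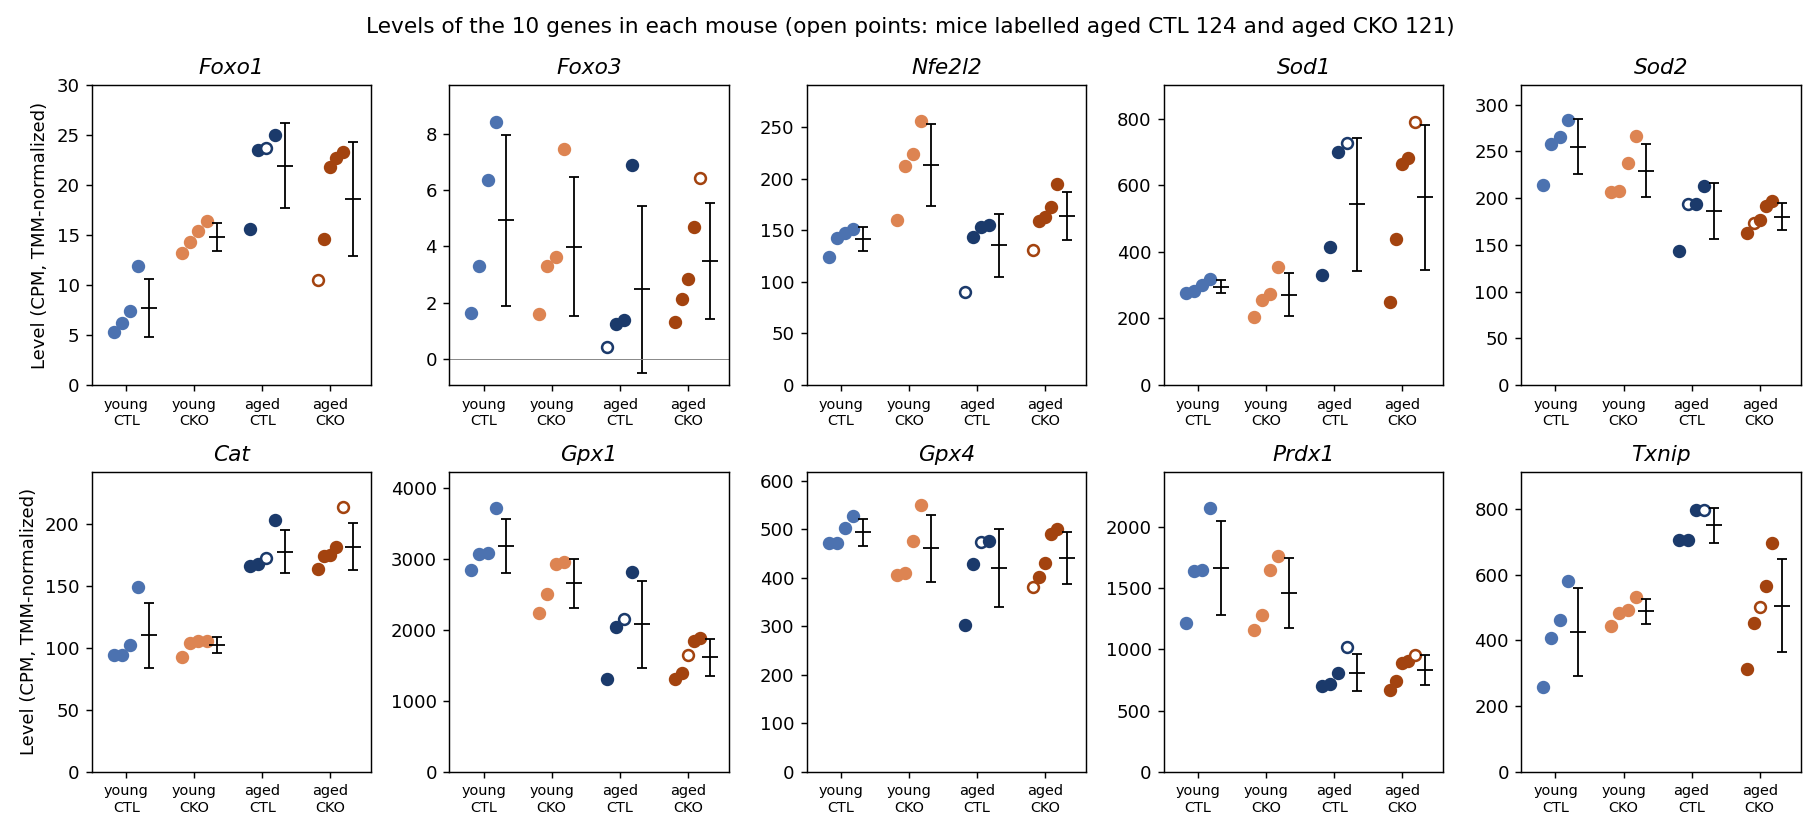
Level of each of the 10 genes (vertical axis, TMM-normalized CPM, own scale for each gene) in every mouse of the 4 groups, with the mean and SD beside the points; open points are the mice labelled aged CTL 124 and aged CKO 121. Cat was at 164.3 CPM or more in every aged mouse and at 149.6 CPM or less in every young mouse, and Prdx1 was at 1022 CPM or less in every aged mouse and at 1156 CPM or more in every young mouse.

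Foxo1 (chr3:52268336-52353221, plus strand) is the FoxO factor whose groups separated in some comparisons. It shares 674 exonic bases, 7.78% of its exons, with the antisense gene Gm20402, which is not in the count table, and whether the counting used strand is not given in the sources used here. In young CTL HSCs it measured 5.28, 11.9, 6.24 and 7.40 CPM, and in young CKO HSCs 15.4, 14.3, 16.5 and 13.2 CPM. Every young CKO mouse was above every young CTL mouse. The difference was 0.94 (SE 0.39, 95% interval 0.11 to 1.77), with an unadjusted p of 0.0282 and an adjusted p of 0.620 in edgeR, so it did not pass the test, and an exact two-sided permutation test of the 4 against 4 mice gave p = 0.0286, the smallest it can give. Aged CTL mice had 15.6, 23.5, 25.0 and 23.7 CPM, all above the young CTL mice. Aged CKO mice had 23.3, 21.8, 14.6, 10.5 and 22.7 CPM, of which the lowest belongs to the mouse labelled 121, and they overlapped with aged CTL mice. In the aged mice the CKO difference was -0.23 (95% interval -0.98 to 0.52, adjusted p = 0.877), and -0.05 (adjusted p = 0.971) without mice 121 and 124.

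Between the ages, Foxo1 rose in CTL mice by 1.50 on the log2 scale (SE 0.37, adjusted p = 0.00973), a 2.83-fold difference. In CKO mice the difference was 0.33 (95% interval -0.38 to 1.03, adjusted p = 0.554). The test of the difference between the genotype effects at the 2 ages gave -1.18 (SE 0.49, unadjusted p = 0.0257, adjusted p = 0.999), and without mice 121 and 124 it gave -0.99 (adjusted p = 0.748), so a dependence of the genotype effect on age was not shown. These levels rest on 24 to 224 counts per mouse. The 2 libraries of a mouse differed in Foxo1 by a median of 0.85 on the log2 scale over 16 mice, and by up to 3.43 in the mouse labelled aged CKO 121, where library A held 1.72 and library B 23.5 CPM.

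Foxo3 (chr10:42181841-42276755, minus strand), the FoxO factor best known for keeping HSCs quiescent, was low in all 4 groups. Young CTL mice had 3.30, 1.63, 8.42 and 6.37 CPM and young CKO mice 1.58, 3.29, 7.46 and 3.61 CPM. Aged CTL mice had 1.36, 1.24, 6.89 and 0.420 CPM, the last from only 3 counts, and aged CKO mice 2.83, 4.67, 2.14, 6.45 and 1.29 CPM. Ranges overlapped in every comparison. With 3 to 58 counts per mouse and a median difference of 1.27 on the log2 scale between the libraries of a mouse, the 95% interval of the young genotype difference reached from -1.72 to 1.11 and that of the aged one from -1.43 to 2.42. The age differences were -0.99 in CTL mice (95% interval -2.75 to 0.78) and -0.19 in CKO mice (-1.83 to 1.45). Differences within those intervals were not excluded, and what set the width of the intervals was not tested.

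Nfe2l2 (chr2:75675513-75704641, minus strand) encodes Nrf2. It measured 142.5, 151.2, 147.5 and 124.2 CPM in young CTL mice, and young CKO mice had 223.7, 160.0, 256.0 and 211.7 CPM. All 4 young CKO mice were higher than all 4 young CTL mice. The difference was 0.59 (SE 0.16, 95% interval 0.25 to 0.94), a 1.51-fold difference, with an unadjusted p of 0.00222 that ranked 89 of 11526 genes and an adjusted p of 0.284, so it was not called, and the exact two-sided permutation test gave the smallest p it allows, 0.0286. Counting libraries in place of mice as replicates in a likelihood ratio test gave an adjusted p of 0.0144, and over the other 6 alternatives the adjusted p was up to 0.804. In aged mice the CTL values were 155.3, 153.1, 143.2 and 90.2 CPM and the CKO values 194.9, 162.6, 172.2, 130.8 and 158.7 CPM. The lowest value of each aged group is that of the mouse whose Ythdf2 goes against its label, and the aged groups overlapped only through the mouse labelled CKO 121. The aged difference was 0.28 (95% interval -0.15 to 0.71, adjusted p = 0.680), and 0.19 (adjusted p = 0.708) without mice 121 and 124, where all 4 CKO mice were above all 3 CTL mice. The genotype effects at the 2 ages differed by -0.31 (adjusted p = 0.999). With age Nfe2l2 differed by -0.06 in CTL mice (95% interval -0.45 to 0.32) and by -0.38 in CKO mice (-0.74 to -0.01, adjusted p = 0.152). The latter was called only by the 2 fits that take libraries as replicates (adjusted p = 0.0448 and 0.0484).

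Sod1 (chr16:90220754-90226329, plus strand) encodes the copper- and zinc-containing superoxide dismutase of the cytosol. Its level was 278, 302, 282 and 320 CPM in young CTL mice, and young CKO mice had 203, 254, 356 and 274 CPM. Aged CTL mice had 331, 701, 415 and 726 CPM and aged CKO mice 682, 664, 249, 791 and 438 CPM. Aged mice were more spread out than young mice, with a coefficient of variation of 36.8% in aged CTL against 6.54% in young CTL. Sod1 rose with age by 0.88 in CTL mice (SE 0.28, adjusted p = 0.0421) and by 1.05 in CKO mice (SE 0.27, adjusted p = 0.0117), although aged CKO mouse 94 lay within the young CKO range. In CTL mice the call is marginal: it was lost in 8 of 17 fits that each left out 1 mouse (young CTL 1, 2, 3 or 4, young CKO 2 or 4, aged CTL 99 or the mouse labelled 124), with adjusted p up to 0.119, and without mice 121 and 124 together (0.70, adjusted p = 0.0855). In CKO mice the call was kept in all 17 such fits. Genotype differences in Sod1 were -0.12 (95% interval -0.46 to 0.23) in young and 0.06 (-0.62 to 0.74) in aged mice.

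Sod2 (chr17:13006846-13040063, plus strand), the manganese superoxide dismutase of mitochondria and a known FoxO target, went the other way with age. Young CTL mice had 265, 213, 283 and 258 CPM against 194, 143, 212 and 194 CPM in aged CTL mice. Young CKO mice had 207, 208, 266 and 237 CPM against 197, 192, 163, 173 and 176 CPM in aged CKO mice. Aged and young mice did not overlap in either genotype, but the narrowest gap in CTL mice was between 213 and 212 CPM. The differences of -0.45 in CTL (SE 0.15, adjusted p = 0.0512) and -0.35 in CKO mice (SE 0.15, adjusted p = 0.109) did not pass the test. In CTL mice the adjusted p was below the threshold with DESeq2 (0.0207), with its size factors in edgeR (0.0458), with the Y-linked covariate (0.0431) and in the 2 fits that take libraries as replicates (0.0244 and 0.0286), which treat the libraries of a mouse as independent. Among 17 fits that each left out 1 mouse, it was below the threshold in 4 in CTL mice (lowest 0.0382). In CKO mice it was below the threshold only in the 2 fits that take libraries as replicates (0.0247 and 0.0280). Between genotypes Sod2 differed by -0.15 (95% interval -0.45 to 0.16) in young and -0.04 (-0.38 to 0.31) in aged mice.

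Cat (chr2:103453849-103485160, minus strand) encodes catalase, the peroxisomal enzyme that splits hydrogen peroxide. In young CTL mice it was at 94.8, 149.6, 102.5 and 94.3 CPM, and young CKO mice had 92.8, 106.0, 106.2 and 104.1 CPM. Aged CTL mice had 203.5, 168.4, 166.5 and 172.9 CPM, and aged CKO mice had 164.3, 181.7, 174.2, 214.1 and 175.5 CPM. All 9 aged mice were above all 8 young mice. Cat rose with age by 0.69 in CTL mice (SE 0.17, adjusted p = 0.00892) and by 0.83 in CKO mice (SE 0.16, adjusted p = 0.00165), and both calls were kept in each of 17 fits that left out 1 mouse. Genotype made a difference of -0.11 (95% interval -0.49 to 0.27) in young and 0.04 (-0.29 to 0.37) in aged mice.

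Gpx1 (chr9:108338903-108340343, plus strand) is a selenoprotein that reduces hydrogen peroxide with glutathione. Young CTL mice had 3064, 3089, 2849 and 3726 CPM and aged CTL mice 2041, 1306, 2813 and 2151 CPM. Young CKO mice had 2237, 2930, 2951 and 2507 CPM and aged CKO mice 1397, 1886, 1839, 1641 and 1303 CPM. Aged mice were below young mice of the same genotype without overlap, but the narrowest gap in CTL mice was between 2813 and 2849 CPM. Gpx1 fell with age by 0.61 in CTL mice (SE 0.18, adjusted p = 0.0296) and by 0.72 in CKO mice (SE 0.17, adjusted p = 0.00762). In CTL mice the call was lost without young CTL 1 (adjusted p = 0.0572), young CTL 4 (0.102) or aged CTL 99 (0.0771), and in CKO mice it was kept in each such fit. The genotype difference was -0.26 (95% interval -0.52 to 0.01, unadjusted p = 0.0558) in young mice and -0.35 (-0.78 to 0.08, unadjusted p = 0.101) in aged mice, with adjusted p of 0.715 and 0.579.

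Gpx4 (chr10:80047166-80056439, plus strand), the selenoprotein that protects membranes from lipid peroxidation, passed no test in any comparison. Its group means were 494 ± 26.9 (SD, n = 4) in young CTL, 461 ± 68.2 (n = 4) in young CKO, 420 ± 80.8 (n = 4) in aged CTL and 441 ± 53.4 CPM (n = 5) in aged CKO mice. All 4 ranges overlapped. With age it differed by -0.23 (95% interval -0.56 to 0.10) in CTL and -0.06 (-0.37 to 0.25) in CKO mice, and with genotype by -0.10 (-0.38 to 0.19) in young and 0.08 (-0.29 to 0.44) in aged mice.

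Prdx1 (chr4:116685544-116700822, plus strand), a thioredoxin-dependent peroxidase whose promoter match is printed above, had the largest fall of the members called lower with age in each genotype. Young CTL mice had 1641, 1219, 1649 and 2155 CPM and aged CTL mice 806, 697, 713 and 1022 CPM. Young CKO mice had 1281, 1763, 1646 and 1156 CPM and aged CKO mice 906, 741, 666, 958 and 890 CPM. No aged mouse reached the lowest young mouse. Prdx1 fell by 1.04 in CTL mice (SE 0.19, adjusted p = 0.00172), a 2.06-fold difference, and by 0.81 in CKO mice (SE 0.17, adjusted p = 0.00353), a 1.76-fold difference. Both calls were kept in each of 17 fits that left out 1 mouse and without mice 121 and 124 together, where the differences were -1.17 and -0.87. Genotype differences were -0.18 (95% interval -0.54 to 0.17) in young and 0.05 (-0.31 to 0.40) in aged mice.

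Txnip (chr3:96557957-96561883, plus strand) encodes a protein that binds and blocks thioredoxin and limits glucose uptake. The values of young CTL mice were 407, 580, 461 and 257 CPM, and those of young CKO mice 493, 533, 443 and 484 CPM. Aged CTL mice had 705, 704, 796 and 796 CPM, tightly grouped, and aged CKO mice had 696, 454, 564, 502 and 312 CPM. Each aged CKO mouse was below each aged CTL mouse, the mouse labelled 121 included, whereas the young groups overlapped. The narrowest gap was between 696 CPM in aged CKO 78 and 704 CPM in aged CTL 99, a mouse with 1 library used. The aged difference was -0.56 (SE 0.20, 95% interval -0.99 to -0.13), a 1.47-fold difference, with an unadjusted p of 0.0146 and an adjusted p of 0.398 in edgeR, so it was not called, and the exact two-sided permutation test of 4 against 5 mice gave p = 0.0159. Without mice 121 and 124 the difference was -0.54 (adjusted p = 0.376), again with no overlap. With libraries as replicates in a likelihood ratio test the adjusted p was 0.0204, and over the other 7 alternatives it was up to 0.395.

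With age, Txnip rose in CTL mice by 0.82 (SE 0.22, adjusted p = 0.0158), a call that was lost without young CTL 4, the lowest mouse (0.63, adjusted p = 0.0637). In CKO mice the age difference was 0.05 (95% interval -0.37 to 0.47). The genotype effects at the 2 ages differed by -0.77 (SE 0.30, unadjusted p = 0.0170, adjusted p = 0.970), which did not pass the test. Txnip shares 606 exonic bases, 19.4% of its exons, with the antisense gene Gm15441, and whether the counting used strand is not given in the sources used here. Gm15441 itself was at 65.4, 85.8, 74.6 and 74.9 CPM on average in young CTL, young CKO, aged CTL and aged CKO mice, and it passed no test (age in CTL 0.19, adjusted p = 0.734; aged genotype 0.01, adjusted p = 0.994).

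Over the 10 genes, the genotype comparison in young mice called 0 at an adjusted p below 0.05, where 0.174% of all 11526 genes tested (20 genes) were called. Foxo1 and Nfe2l2 were the 2 members at an unadjusted p below 0.05, against 7.06% of all genes, and the same 2 did not overlap between groups, against 4.77%. In aged mice 0 members were called in edgeR, where 0% of 11961 genes were called (0.333% of 12005 without mice 121 and 124), and Txnip was the 1 member at an unadjusted p below 0.05 against 10.1% of all genes and the 1 without overlap against 3.48%. Without mice 121 and 124, Nfe2l2 and Txnip did not overlap, against 11.5% of all genes, and the aged differences were 0.07 for Sod1, -0.01 for Sod2, -0.05 for Cat, -0.35 for Gpx1, 0.18 for Gpx4, 0.11 for Prdx1 and -0.22 for Foxo3, with adjusted p of 0.599 or more. For the difference between the genotype effects 0 members were called against 0% of 12352 genes, and Foxo1 and Txnip were the 2 at an unadjusted p below 0.05 against 4.76%. DESeq2 likewise called 0 members in each of these 3 comparisons.

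**Figure D2:**
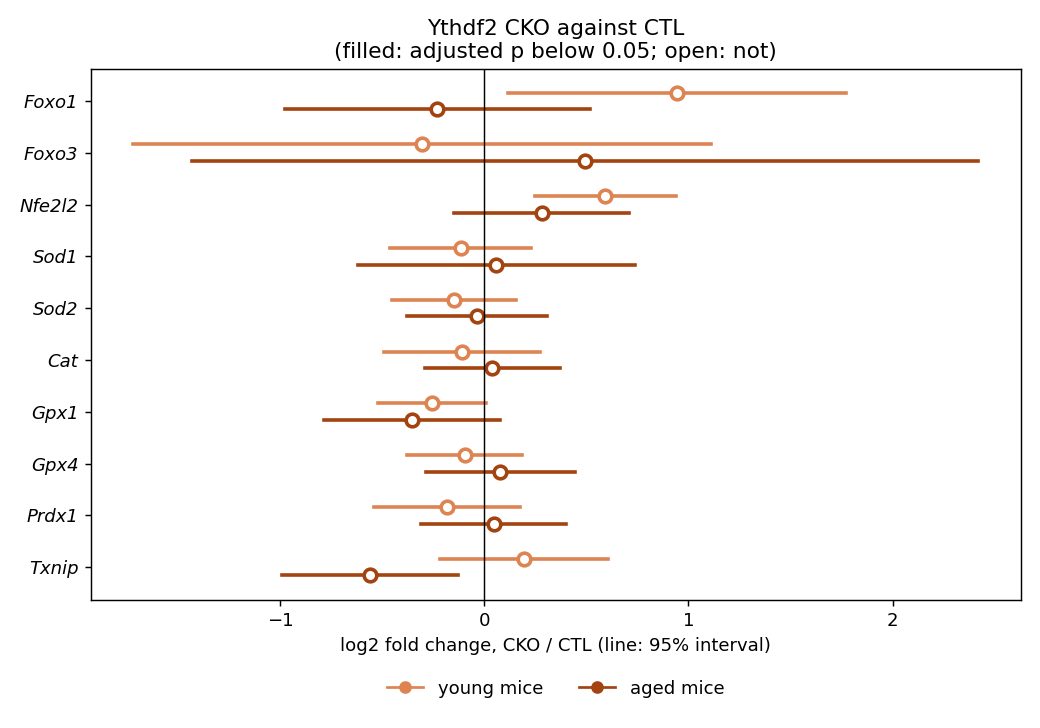
Log2 fold change of CKO over CTL (horizontal axis) with its 95% interval for each of the 10 genes, in young mice (lighter) and aged mice (darker); open points did not reach an adjusted p below 0.05. All 20 points are open, and the intervals of Foxo1 and Nfe2l2 in young mice and of Txnip in aged mice leave out 0.

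The age comparisons gave more calls, among genes chosen with earlier results of these data known. In CTL mice 6 of 10 members were called, 4 higher (Foxo1, Txnip, Sod1 and Cat) and 2 lower (Gpx1 and Prdx1), where 14.8% of 12352 genes were called, 6.7% higher and 8.07% lower. Groups did not overlap for 7 of 10 members, against 17.1% of all genes. In CKO mice 4 of 10 were called, Sod1 and Cat higher and Gpx1 and Prdx1 lower, where 16.6% of all genes were called (7.21% higher and 9.34% lower), and 4 of 10 (Sod2, Cat, Gpx1 and Prdx1) did not overlap against 20.4%. The median of all genes stood at 0.11 in CTL and 0.07 in CKO mice under TMM scaling and at 0.10 and 0.06 with the size factors of DESeq2, so each member's direction is relative to a median near those values. The 2 age comparisons use different mice. Without mice 121 and 124, 5 of 10 were called in CTL mice against 17.6% of genes, as Sod1 dropped out, and the same 4 in CKO mice against 18.1%.

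**Figure D3:**
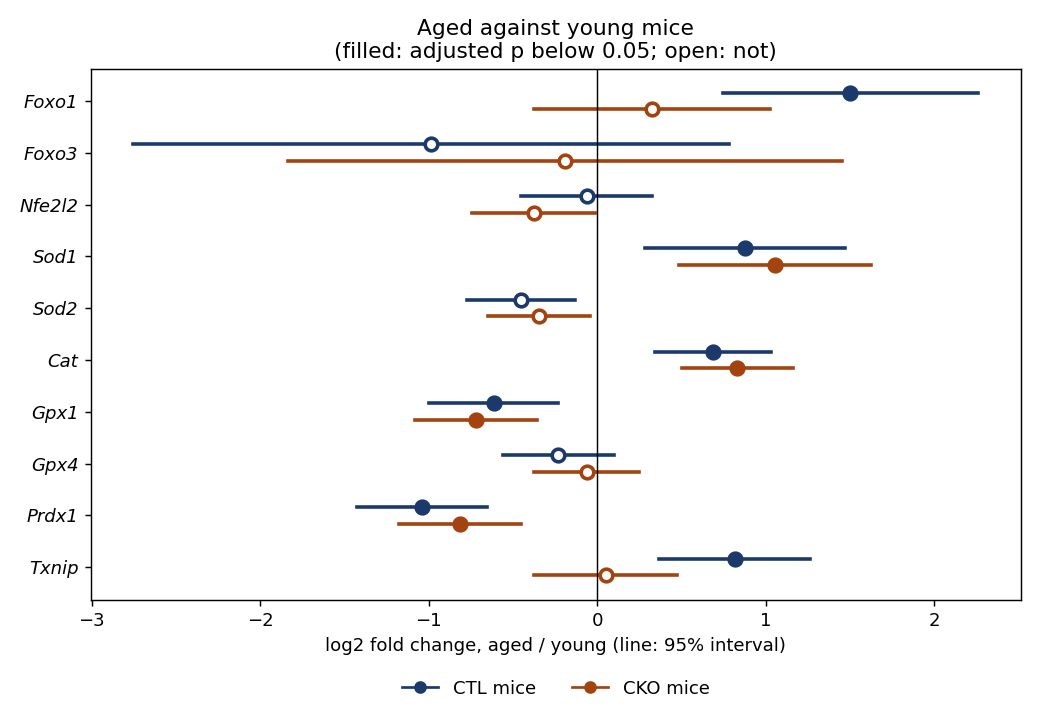
Log2 fold change of aged over young mice (horizontal axis) with its 95% interval for each of the 10 genes, in CTL mice (blue) and CKO mice (brown); filled points had an adjusted p below 0.05. Sod1 and Cat lie to the right and Gpx1 and Prdx1 to the left in both genotypes, while Foxo1 and Txnip are filled in CTL mice only, and the test of that difference between genotypes did not pass (adjusted p = 0.999 and 0.970).

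Other signals moved with the groups. The summed level of 9 dissociation and immediate early genes was 1019 to 2478 CPM in young CTL and 963 to 1826 CPM in young CKO mice, against 1806 to 3387 CPM in aged CTL and 1996 to 4020 CPM in aged CKO mice, and its part in the age differences was not tested. The sum of 3 multipotent progenitor markers was 464 to 581 CPM in young CTL and 184 to 616 CPM in aged CTL mice, with overlap, and 517 to 675 CPM in young CKO against 241 to 356 CPM in aged CKO mice, without overlap. Lymphoid markers (7 of 14 in the table) were lower in aged mice of both genotypes without overlap, at 494 to 612 against 197 to 372 CPM in CTL and 468 to 573 against 230 to 404 CPM in CKO mice. The sum of 13 HSC markers had a median of 2309 CPM in young and 3033 CPM in aged CTL mice, and of 2653 and 3144 CPM in CKO mice, with overlap in both. With genotype, the sum of 9 megakaryocyte and platelet markers had a median of 758 CPM in young CTL against 1753 CPM in young CKO mice, beside the higher Nfe2l2 and Foxo1 values there. In the same young mice the HSC marker sum (1921 to 2339 CPM in CTL, 2430 to 3110 CPM in CKO) and that of 15 granulocyte and monocyte markers (997 to 1140 CPM in CTL, 1163 to 1337 CPM in CKO) did not overlap either. Not every marker followed its sum. Of those tested, 6 of 9 megakaryocyte and platelet, 8 of 13 HSC and 6 of 11 granulocyte and monocyte markers had positive differences. Their medians were 0.58, 0.04 and 0.09, and 49.9% of all genes were positive. In aged mice the megakaryocyte and platelet sum was 429 to 641 CPM in CTL against 610 to 2193 CPM in CKO mice, with 610 CPM in the mouse labelled 121, and the sum of 5 macrophage markers was 24.9 to 61.1 CPM in CTL against 4.30 to 6.05 CPM in CKO mice, beside the lower Txnip there. The macrophage sum went with the label in both doubted mice, at 6.05 CPM in the mouse labelled CKO 121 and 57.5 CPM in the mouse labelled CTL 124. The part of these markers in the differences was not tested. Y-linked reads (4 genes, summed) were at 197 CPM or more in 3 of 4 young CTL, 1 of 4 young CKO, 1 of 4 aged CTL and 1 of 5 aged CKO mice and at 0.186 CPM or less in the others, and with their level as a covariate the age difference of Sod1 in CTL mice had an adjusted p of 0.0536.

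Relatives of the 10 genes were followed as lists. In the main fits of the genotype comparisons and of the difference between them no gene of the 12 lists was called. Without mice 121 and 124, Cited2, a FoxO target, was higher in aged CKO mice (0.90, adjusted p = 0.0497) and Selenop, the selenium carrier, lower (-0.82, adjusted p = 0.0316). List genes outside the 10 were not followed in the other alternatives. Some of the related genes with the smallest unadjusted p in each list are described here. In young mice Gpx8, an endoplasmic reticulum peroxidase, was at 2.70 CPM in CTL and 14.4 CPM in CKO mice (2.42, adjusted p = 0.424). Nqo1, a classical Nrf2 target that encodes a quinone reductase, was at 33.9 and 22.4 CPM (-0.59, adjusted p = 0.629), without overlap between groups. It was the 1 Nrf2 target of 28 tested with an unadjusted p below 0.05, against 7.06% of all genes. Positive differences were held by 17 of the 28, against 49.9% of all genes, with a list median of 0.05. In aged mice Ep300, a histone acetyltransferase that acetylates FoxO proteins, was at 82.3 CPM in CTL and 34.9 CPM in CKO mice (-1.23, adjusted p = 0.205), and Cdkn1c, the cell cycle inhibitor p57 and a FoxO target, at 72.6 and 30.9 CPM (-1.22, adjusted p = 0.297), both without overlap. Leaving out mice 121 and 124, they were at -1.01 and -1.47, with an adjusted p of 0.0753 for each. Mgst1, a microsomal glutathione transferase, was at 39.7 and 14.6 CPM (-1.43, adjusted p = 0.312, and 0.141 without mice 121 and 124).

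List counts with age stand beside 6.7% of all genes higher and 8.07% lower in CTL mice, and 7.21% higher and 9.34% lower in CKO mice. Without mice 121 and 124 these shares were 7.7% higher and 9.92% lower in CTL mice, and 7.68% higher and 10.4% lower in CKO mice. No list was tested against the other genes or against another list. Of 6 peroxiredoxins, 4 fell and 0 rose in CTL mice, with a list median of -0.70 against 0.11 over all genes. Prdx4, of the endoplasmic reticulum, fell from 223 to 108 CPM (-1.04, adjusted p = 0.00383), Prdx3, of mitochondria and a FoxO target, from 269 to 148 CPM (-0.86, adjusted p = 0.00436), and Prdx2, of the cytosol, from 736 to 506 CPM (-0.54, adjusted p = 0.0259), beside Prdx1. In CKO mice 3 of 6 fell (Prdx1, Prdx2 and Prdx3) and 0 rose, with a median of -0.50 against 0.07. Of the thioredoxin and glutaredoxin system, 6 of 26 genes fell and 2 rose in CTL mice, and 5 fell and 2 rose in CKO mice, with 7 lower in each genotype without mice 121 and 124. Txn1, thioredoxin itself and the partner of Txnip, fell from 818 to 395 CPM in CTL (-1.05, adjusted p = 0.00172) and from 752 to 422 CPM in CKO mice (-0.83, adjusted p = 0.0033). In CTL mice Txn1 and Txnip therefore moved in opposite directions. Glrx, a glutaredoxin, fell in both genotypes (-0.85, adjusted p = 0.0134, and -0.87, adjusted p = 0.00629).

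Of 33 FoxO target genes tested, 8 rose and 1 fell in CTL mice, with a median of 0.29 against 0.11 over all genes, and 3 rose and 3 fell in CKO mice, with a median of 0.12 against 0.07. With mice 121 and 124 left out, 9 rose and 1 fell in CTL mice and 6 rose and 3 fell in CKO mice. In CTL mice Cdkn1a, the cell cycle inhibitor p21, rose from 7.13 to 36.3 CPM (2.33, adjusted p = 0.00446), Cdkn1c from 27.5 to 72.6 CPM (1.39, adjusted p = 0.00434) and Klf6, a zinc finger factor that is also induced by stress, from 75.2 to 218 CPM (1.53, adjusted p = 0.00576), beside Cat, while Prdx3 fell. The list holds Cat, Sod2 and Txnip themselves. In CKO mice Cat and Klf6 rose, and Prdx3 and Bnip3 (a mitophagy receptor, -0.93, adjusted p = 0.00344) were among those that fell. Among the 32 regulators of FoxO proteins, Atm, the DNA damage kinase, fell in both genotypes (-1.50, adjusted p = 0.00205, and -2.13, adjusted p = 0.000107), and Mdm2, a ubiquitin ligase and p53 target, rose in both (1.18, adjusted p = 0.00499, and 1.01, adjusted p = 0.00764). The list as a whole had 5 genes higher and 3 lower in CTL mice and 3 higher and 3 lower in CKO mice. In CKO mice Akt1 and Akt2, kinases that inactivate FoxO proteins, rose (1.15, adjusted p = 0.0148, and 1.23, adjusted p = 0.00481), while Pdpk1, the kinase that activates AKT, fell (-1.26, adjusted p = 0.00563). In CTL mice Usp7, a deubiquitinase of FoxO proteins, and Ep300 rose (0.97, adjusted p = 0.00465, and 1.02, adjusted p = 0.0207), while Sgk3, an AKT-related kinase, fell from 93.9 to 47.2 CPM (adjusted p = 0.00512).

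Of 29 Nrf2 target genes, 4 rose and 3 fell in CTL mice and 5 rose and 5 fell in CKO mice, so the list did not move one way. Fth1, the ferritin heavy chain, fell from 2240 to 1360 CPM in CTL (-0.72, adjusted p = 0.0155) and from 2205 to 1299 CPM in CKO mice (-0.76, adjusted p = 0.00629), with Prdx1 and Txn1. Abcc1, a glutathione conjugate exporter, rose from 34.8 to 83.4 CPM in CTL mice (1.27, adjusted p = 0.00259). Hmox1, heme oxygenase, fell from 14.2 to 2.70 CPM in CKO mice (-2.40, adjusted p = 0.0107), where the macrophage marker sum was 7.52 to 44.4 CPM in young and 4.30 to 6.05 CPM in aged mice, and its part was not tested. Of 15 regulators of Nrf2, Rbx1, a subunit of the ligase that degrades it, fell in CTL (-0.88, adjusted p = 0.00259) and CKO mice (-0.86, adjusted p = 0.00142), and Nfe2l1, a relative of Nfe2l2, rose in both (1.06, adjusted p = 0.0203, and 1.26, adjusted p = 0.00535). Keap1, the inhibitor of Nrf2, rose in CKO mice (0.92, adjusted p = 0.0287), as did Sqstm1 (0.68, adjusted p = 0.0285). In CTL mice Dpp3 and Mafg rose (0.88, adjusted p = 0.0205, and 1.05, adjusted p = 0.0268). This list had 3 genes higher and 1 lower in each genotype.

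Among the remaining lists, 2 of 6 catalase and glutathione peroxidase genes rose and 1 fell in CTL mice, and 1 rose and 1 fell in CKO mice. The extra gene in CTL mice was Gpx3, the secreted form, which had 0 to 1 counts in young CTL mice and 0 to 106 in aged CTL mice, with overlap. Of 3 superoxide dismutase genes only Sod1 was called, in both genotypes. Of 25 genes of glutathione synthesis and transfer, 1 rose and 3 fell in CTL mice and 2 rose and 3 fell in CKO mice, with Gsr, glutathione reductase, higher (0.63, adjusted p = 0.0438, and 0.73, adjusted p = 0.0148) and Gsto1 lower in both (-0.76, adjusted p = 0.0107, and -0.71, adjusted p = 0.00851). Mgst1 fell in CKO mice from 61.6 to 14.6 CPM (-2.07, adjusted p = 0.000446). Of 18 selenoprotein genes and factors, 1 rose and 2 fell in CTL and 3 rose and 4 fell in CKO mice, with Selenof and Selenok lower in both. The CTL counts without mice 121 and 124 were 5 higher and 3 lower. Of 8 NADPH oxidase genes 1 fell in CTL and 2 in CKO mice and 0 rose, with medians of -0.32 and -0.69 against 0.11 and 0.07 over all genes. Ncf4, a cytosolic subunit, fell in both (-1.45, adjusted p = 0.00477, and -1.35, adjusted p = 0.00333). Without mice 121 and 124, NADPH oxidase genes lower numbered 2 in CTL and 3 in CKO mice, glutathione genes higher 2 in CTL mice, catalase and glutathione peroxidase genes higher 2 in CKO mice, and superoxide dismutases higher 0 in CTL mice.

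**Figure D4:**
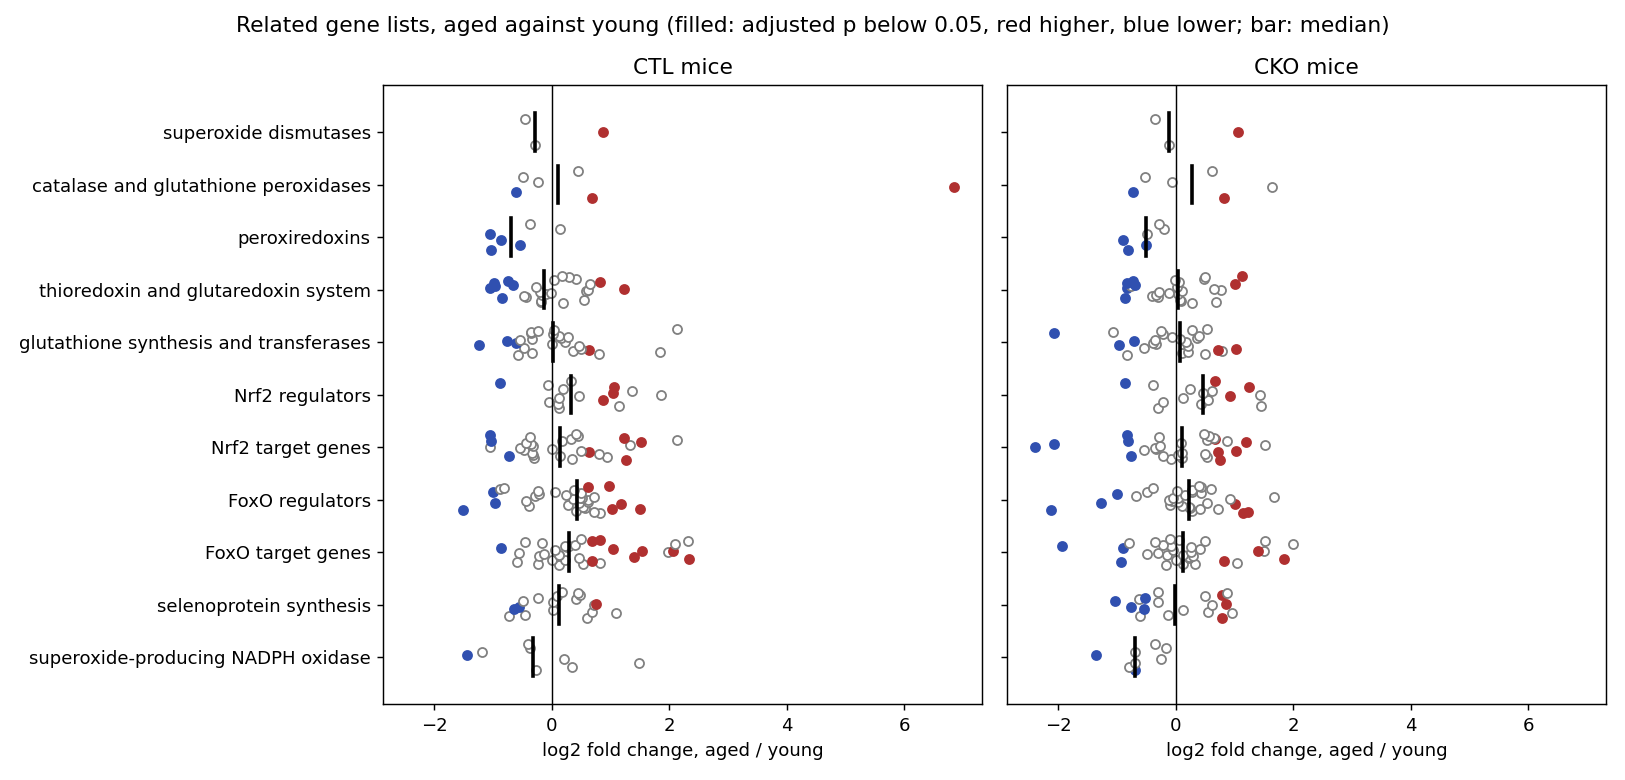
Log2 fold change of aged over young mice (horizontal axis, the same in both panels) for every tested gene of 11 related lists (vertical axis), in CTL mice (left) and CKO mice (right); filled points had an adjusted p below 0.05 (red higher, blue lower) and the black bar is the list's median. The peroxiredoxin medians lie at -0.70 and -0.50, and the far right point in CTL mice is Gpx3, which had at most 1 count in a young CTL mouse.

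Within groups, the deviations of each gene's log2 CPM from its group mean were compared over the 17 mice as a description. Gpx1 and Gpx4 deviated together most closely among the 10 genes (Pearson r = 0.79), followed by Sod2 and Gpx4 (r = 0.62), and Prdx1 and Nfe2l2 deviated most in opposite directions (r = -0.55). Over all genes tested, the gene most like each was Commd5 for Foxo1 (r = 0.89), Wtap for Sod1 (r = 0.95), Dnd1 for Gpx1 (r = 0.92), Trim25 for Gpx4 (r = 0.92), Mrpl48 for Prdx1 (r = 0.92) and Gm5833 for Nfe2l2 (r = 0.94), and r was 0.81 to 0.86 for the best match of Foxo3 (Gcsam), Sod2 (Lima1), Cat (Zfp12) and Txnip (Snrnp48). The values of a mouse share its libraries and their depth, and these are the best of 12352 genes, so these pairs are a description only.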

How the data were processed

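RNA from 100 sorted LSK CD48-CD150+ HSCs per library was amplified by SMART-Seq2 and sequenced. Per the labels and the study's methods, the authors aligned reads to mm10 with HISAT2 and counted them per gene with Rsubread, and deposited raw counts with no normalization. The annotation and use of strand are not given in the sources used here. Of the rows, 1 held no count and 19 carry names in the form of dates. The libraries of a mouse were summed. edgeR 4.0.16 (R 4.3.3) was used with filterByExpr (minimum count 10, minimum total 15), TMM factors and the quasi-likelihood F test. Benjamini-Hochberg adjustment ran over all genes tested, with calls at an adjusted p below 0.05. Young and aged genotype effects were fitted apart, and age effects and the interaction in a fit of all 17 mice. CPM values are TMM-normalized over 17 mice, and SE is the fold change divided by the root of F. The procedure was tested on simulated data. Exact two-sided permutation tests used log2 CPM. 

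The genes named were the 10 members with values in every mouse, Ythdf2, up to 5 called genes of each list with the smallest adjusted p (or the gene with the smallest unadjusted p where none was called), and for each member the gene most like it over 17 mice. The members and lists were chosen with earlier results of these data known. Gm15441 was added as the antisense partner of Txnip. Coordinates and exon lengths come from GENCODE on GRCm38. Alternatives were DESeq2 1.42.0, its size factors in edgeR, no filter, a likelihood ratio test over libraries, a Y-linked covariate, all mice in a single fit, a replicate block, both mismatched mice left out, and each mouse left out. The values of 1 gene of the FoxO target list are not reported here.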

Additional observations from a re-analysis of the deposited data

Results flagged for a closer look

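Among 44 combinations of a gene and a group (the 10 genes and Ythdf2 in 4 groups), 5 held a mouse that stood far from the others by Dixon's criterion, where chance marks about 1 in 20, or 2.2 of 44. Foxo1 in aged CTL mouse 65 was 15.6 CPM with the nearest mouse at 23.5 CPM, and its libraries held 34.7 and 2.96 CPM. Foxo3 in aged CTL mouse 114 was 6.89 CPM with the nearest at 1.36 CPM, and its libraries held 13.2 and 0.746 CPM. Cat in young CTL mouse 2 was 149.6 CPM with the nearest at 102.5 CPM. Cat in young CKO mouse 1 was 92.8 CPM with the nearest at 104.1 CPM. Ythdf2 in the mouse labelled aged CKO 121 was 188.1 CPM with the nearest at 87.8 CPM.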

How the results depend on the processing

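Foxo3 (3 to 58 counts per mouse) and Foxo1 (24 to 224) rested on the fewest counts of the 10 genes. The part of depth in their spread was not tested. Leaving out the 2 mice whose Ythdf2 goes against the label still called 0 members in the aged genotype comparison. Genes called in the young genotype comparison (20 in edgeR) numbered 77 with DESeq2, 90 with the likelihood ratio test over libraries, 10 with the Y-linked covariate and 1 in the single fit of 17 mice, and 0 to 18 without each mouse. In the aged comparison (0 called, 1208 at an unadjusted p below 0.05) they numbered 104, 420, 5 in the single fit, 40 with the library-letter block and 40 without mice 121 and 124, and 0 to 16 without each mouse (16 without the mouse labelled 121). For the difference between the genotype effects (0 called, 588 unadjusted) they were 3 with the likelihood ratio test, 15 without mice 121 and 124, and 0 to 2 without each mouse. Age in CKO mice gave 3112 with the likelihood ratio test and 1183 to 2655 without each mouse, and age in CTL mice 896 to 2048, the lowest without young CTL 4. Members called moved to 1 (Nfe2l2 in young, Txnip in aged mice) with the likelihood ratio test, and in CTL mice with age they ran from 3 (without young CTL 4) to 7 without each mouse. The cause was not tested.

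Mouse numbers are shared between the young groups. Deviations of same-numbered mice correlated at 0.05, -0.02, 0.04 and 0.01. Such values cannot tell whether these mice were littermates or were handled together. With the mouse number as a replicate block 14 genes and 0 members were called in young mice. With the library letter as a block, libraries and not mice are the replicates, and 7 members were called with age in CTL (Sod2 added) and 6 in CKO mice (Sod2 and Nfe2l2 added).

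Directions that turned were all of differences that passed no test. Aged Gpx4 was -0.014 with the likelihood ratio test and -0.013 with the library-letter block. The Y-linked covariate turned Gpx1 in the difference between genotype effects (0.097) and Nfe2l2 with age in CTL mice (0.061). Without mice 121 and 124, aged Foxo3 was -0.22, aged Cat -0.048 and Nfe2l2 with age in CTL mice 0.090. Leaving out each mouse gave ranges across 0 in young mice for Cat (-0.18 to 0.081), Foxo3 (-0.79 to 0.089) and Sod1 (-0.27 to 0.0017). In aged mice they were Cat -0.024 to 0.097, Gpx4 -0.060 to 0.14, Prdx1 -0.027 to 0.16, Sod1 -0.13 to 0.25 and Sod2 -0.15 to 0.025. For the difference between genotype effects they were Cat -0.044 to 0.21, Gpx1 -0.28 to 0.073, Sod1 -0.0051 to 0.37 and Sod2 -0.0020 to 0.18. With age they were Nfe2l2 -0.15 to 0.076 in CTL mice, and Foxo3 -0.54 to 0.28, Gpx4 -0.12 to 0.023 and Txnip -0.10 to 0.17 in CKO mice.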
